A study of Mus musculus with 35 samples.

Results

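Liver miRNA levels were compared between mice 7 and 15 days after a single ENU injection and mice 1 day after it. ENU (N-ethyl-N-nitrosourea) is an alkylating agent that adds ethyl groups to DNA bases, and it is used as a model genotoxic carcinogen. The comparison took every array labelled ENU_Day 7 (5 mice) or ENU_Day 15 (5 mice), pooled as 10 arrays, against the 5 arrays labelled ENU_Day 1. These are 15 of the 35 arrays of the series, and the post-treatment days are written PTD 1, PTD 7 and PTD 15. All 15 mice were female transgenic Big Blue mice, a line that carries a reporter gene for scoring mutations, 6 months old, that had received ENU intraperitoneally at 120 mg/kg in DMSO. Each array came from the liver of a different mouse. DMSO-treated controls (7 arrays of PTDs 1 and 30) and the ENU-treated mice of PTD 3 (5 arrays) did not enter the comparison and are given beside the results only as values.

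Each array was a real-time PCR plate of 384 wells with assays for 376 miRNAs and 4 reference small RNAs (snoRNA251, snoRNA202, snoRNA142 and U6). The plates were loaded with cDNA made from the small RNA fraction. The threshold cycle (Ct) of a well is the number of PCR cycles it needs to reach a set fluorescence, and it is lower the more RNA there was. Expression is given as -ΔCt, the mean Ct of the 4 reference RNAs of the array minus the Ct of the miRNA, which is a log2 scale. A log2 difference is the mean -ΔCt of PTDs 7 and 15 minus that of PTD 1, and is positive where a miRNA was higher on the later days. A differentially expressed miRNA (DEM) had an unadjusted limma p under 0.01 and a fold change above 2. The liver holds many cell types, and in such bulk tissue fewer cells of a type and less RNA per cell cannot be told apart.

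A miRNA guides the silencing complex to mRNAs that pair with its seed, the bases 2 to 8 from its 5′ end, so that miRNAs with a shared seed share many targets. In damaged cells p53 switches on the genes of miR-34a and of the miR-34b/c pair, whose products hold back cell-cycle and survival genes such as Ccne2, Cdk4, Met and Bcl2. The let-7 family represses Ras, Myc and Hmga2 and is high in differentiated tissue, whereas the miR-17-92 cluster, a target of Myc and E2F, is tied to proliferation. In liver the most abundant miRNA is miR-122, made by hepatocytes.

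RefSeq's table of mouse miRNAs (build GRCm38.p6) gave a sequence for 152 of the 376 miRNAs, 104 by the same name and 48 through the arm that the older name stands for. The sequences that carry the results are shown with the seed in capitals. The first set shares the miR-34 seed, and 4 of the 6 members of this family on the arrays were DEMs, all higher, beside 26.9% of all 376 miRNAs.
miR-34a: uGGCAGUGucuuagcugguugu
miR-34b-5p: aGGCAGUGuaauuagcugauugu
miR-449a: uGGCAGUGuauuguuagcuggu
miR-449c: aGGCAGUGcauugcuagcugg

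The second set shares the let-7 seed, which is held by 9 miRNAs of the arrays, 5 of them DEMs. Members differ only outside the seed.
let-7a: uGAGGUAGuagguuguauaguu
let-7b: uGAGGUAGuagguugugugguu
let-7c: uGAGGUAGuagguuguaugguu

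The third set holds those with a RefSeq sequence among the other miRNAs named by size whose values on PTDs 7 and 15 did not overlap those of PTD 1. The table gave none to print for miR-684, miR-135b, miR-590-3p, miR-150, miR-880 and miR-298, of which several differed by more. No seed is shared within this set, and miR-770-5p and miR-770-3p are the arms of 1 hairpin.
miR-294*: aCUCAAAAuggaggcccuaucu
miR-133b: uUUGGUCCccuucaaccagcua
miR-770-5p: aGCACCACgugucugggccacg
miR-770-3p: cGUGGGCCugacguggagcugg
miR-762: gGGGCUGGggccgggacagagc
miR-302c*: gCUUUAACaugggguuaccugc
miR-876-5p: uGGAUUUCucugugaaucacua

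The last set is the hairpin of miR-883b, whose arms were DEMs in opposite directions.
miR-883b-5p: uACUGAGAauggguagcaguca
miR-883b-3p: uAACUGCAacaucucucaguau

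On GRCm38.p6, miR-34b-5p lies at chr9:51103610-51103632 and miR-34a at chr4:150068473-150068494. The arms of miR-770 lie at chr12:109563710-109563731 and chr12:109563744-109563765, miR-294* at chr7:3220655-3220676, miR-302c* at chr3:127545368-127545389 and the arms of miR-883b at chrX:66789936-66789957 and chrX:66789900-66789921. The strand is plus for miR-34a, miR-770, miR-294* and miR-302c* and minus for miR-34b-5p and miR-883b.

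The reference RNAs and control wells of the arrays also differed between the days. On PTD 1 the 4 reference RNAs averaged a Ct of 21.6 ± 0.483 (SD, n = 5), and on PTDs 7 and 15 of 22.4 ± 0.533 (SD, n = 10) (difference 0.80 cycles, exact permutation p = 0.011, adjusted p = 0.0247 over 9 measures of the arrays). The median Ct of the 376 miRNAs was itself 0.60 cycles later on PTDs 7 and 15 (exact permutation p = 0.0173, adjusted p = 0.0312 over the same 9 measures). The median log2 difference of all 376 miRNAs was 0.72 on the -ΔCt scale, 0.52 when the median Ct of each array replaced the reference RNAs, and -0.08 on Ct without normalization. A log2 difference near 0.72 is therefore that of the typical miRNA here, and directions hold relative to the reference RNAs.

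The arrays also differed in wells that contain no miRNA assay. The Ct of the first of the 2 reverse transcription control wells minus that of the second lay between -0.28 and -0.02 cycles in the 5 arrays of PTD 1 and between -0.03 and 0.21 in the 10 of PTDs 7 and 15 (exact permutation p = 0.000666, adjusted p = 0.00599), so that only replicate 4 of PTD 1 lay within the later range. The mean Ct of the 2 reverse transcription control wells was 0.23 cycles later on PTDs 7 and 15 (exact permutation p = 0.00899, adjusted p = 0.0247). The positive PCR control wells differed by 0.02 cycles (exact permutation p = 0.840). No run day held arrays of both PTD 1 and the later days, so day of run and PTD cannot be told apart. Replicate 4 of PTD 1 was run in April and the other 14 arrays from February to March, and the comparison was repeated without it. In that array snoRNA202 had a Ct of 21.2, against 22.9 to 23.4 in the other 4 arrays of PTD 1. Replicate 5 of PTD 15 had the latest mean reference Ct of all 15 arrays, 23.5, and without it there were 106 DEMs.

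Relative to the reference RNAs, many more miRNAs were higher than lower on PTDs 7 and 15, a balance that turned on Ct without normalization (9 DEMs higher and 55 lower, and 7 and 77 in the arrays of February to March). Of the 376 miRNAs, 123 were DEMs (32.7%), 101 of them higher (26.9%) and 22 lower (5.85%), and each of the 123 also had an adjusted p under 0.05. Among the arrays of February to March alone, 144 were DEMs (38.3%), 114 higher (30.3%) and 30 lower (7.98%), and 121 miRNAs were DEMs in both, each in the same direction. All 101 higher and all 22 lower DEMs had differences of the same sign on PTD 7 and on PTD 15. They were selected on the pooled values of these days against the same PTD 1 arrays, which nearly builds in like signs. The fits that share the 121 DEMs have all arrays of the later days and most of PTD 1 in common. Neither count is therefore independent support for the differences. With the median Ct of each array, 65 of the 101 and all 22 were DEMs in their direction. On Ct without normalization, 9 of the 101 and all 22 were, and none of the 101 had a negative difference. Without normalization every difference is lower by about the 0.80 cycles by which the reference RNAs differed. The 101, each above 2-fold, could therefore not turn negative, and the 22 could only move further down. The median Ct also lowers all differences alike, so that neither scale is a check on the 22. Without replicate 2 or replicate 3 of PTD 1 the count of DEMs was 73 and 80, without snoRNA202 among the reference RNAs it was 77, and with the reverse transcription control wells as a covariate it was 23. The median log2 difference of all miRNAs was 0.71 with this covariate and 0.72 without it.

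Abundance was taken from the 7 control arrays, which did not enter the comparison. Of the 51 miRNAs up to a control Ct of 22, 27 were higher DEMs and 0 lower, with a median log2 difference of 1.07. Of the 124 with a control Ct between 30 and 33, 23 were higher and 14 lower, with a median of 0.39. Of the 39 above 33, 13 were higher and 0 lower, with a median of 1.00, so that the difference did not fall steadily with abundance. The PCR ended at 40 cycles, which left miRNAs this rare little room to fall. Its part in the 0 lower and in this median was not tested. By control Ct, 14 of the 22 lower DEMs and 36 of the 101 higher ones lay above 30, beside 163 of all 376. By the Ct of PTD 1 these were 13 and 39, and by the mean of the 15 compared arrays, which a change itself shifts, 20 and 33.

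**Figure D1:**
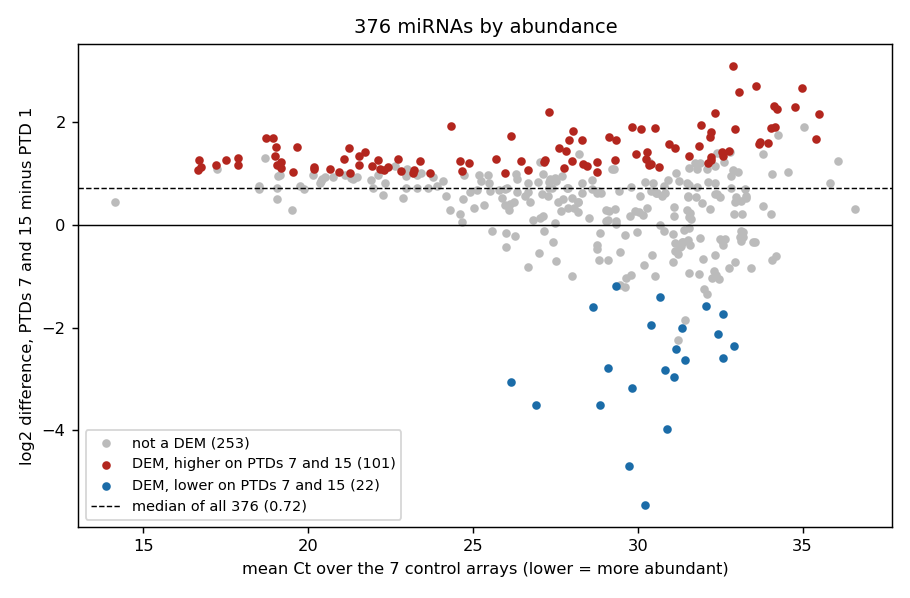
Log2 difference (PTDs 7 and 15 minus PTD 1, reference RNA scale) of 376 miRNAs against their mean Ct in the 7 control arrays, in cycles. The 101 higher DEMs lie across the range of Ct, the 22 lower DEMs between control Cts of 26 and 33, and the dashed line marks the median of all miRNAs at 0.72.

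In 15 miRNAs that were DEMs in both comparisons, the 10 largest positive and all 5 negative differences among those without overlap, every measured value of PTDs 7 and 15 lay on the same side of every value of PTD 1, with 9 later values for miR-684 and 10 for the others. Over all 376 miRNAs, 17 (4.52%) were higher without overlap and 5 (1.33%) lower without overlap. The 15 were named for the lack of overlap, which also sets their exact permutation p at or near the smallest value possible. Neither is added support for their differences.

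**Figure D2:**
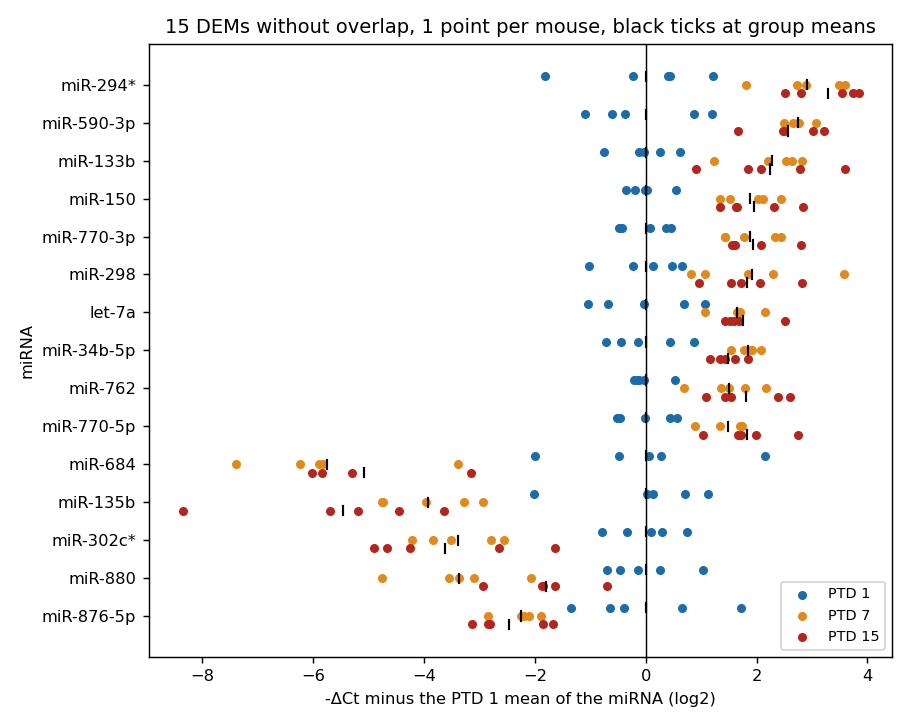
The -ΔCt of each mouse minus the PTD 1 mean of the miRNA, on a log2 scale, for the 15 DEMs without overlap between the 5 mice of PTD 1 and the 10 of PTDs 7 and 15 (9 for miR-684). Points of PTD 7 and PTD 15 intermingle for most of them, and the distance from PTD 1 is widest for miR-684 at -5.45 and narrowest for miR-770-5p at 1.65.

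The miR-34 family was among the higher miRNAs. The level of miR-34b-5p, 1 of the p53-induced pair, was -5.44, -5.72, -5.13, -4.56 and -4.13 in the mice of PTD 1 and -3.84 to -2.91 (median -3.30) on PTDs 7 and 15. All 10 later mice were above the highest mouse of PTD 1. The log2 difference was 1.66 ± 0.28 (SE), a 3.16-fold increase (adjusted p = 0.000423, exact permutation p = 0.000333, which is the smallest that 3003 splits can give).

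Its partner miR-34c, from the same transcript, stood at -8.12, -9.57, -8.61, -8.56 and -8.01 on PTD 1 and at -7.56 to -6.67 (median -6.92) later. The groups again did not overlap, and the log2 difference was 1.57 ± 0.28 (SE; adjusted p = 0.000624, exact permutation p = 0.000333). In the 7 control mice miR-34b-5p ran from -6.56 to -5.67 and miR-34c from -9.78 to -8.54, below every mouse of PTDs 7 and 15 and overlapping the lower mice of PTD 1. On Ct without normalization the differences were 0.86 and 0.77.

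For miR-34a, the family member that p53 induces most widely, 9 of the 10 later mice were above the highest mouse of PTD 1. Its levels were -0.00, -0.49, 0.09, -0.33 and 0.78 on PTD 1, and -2.51 to 1.76 (median 1.57) on PTDs 7 and 15. The mouse at -2.51, replicate 5 of PTD 7, stood apart from the other 4 of PTD 7, which lay between 1.15 and 1.58. The difference of 1.10 ± 0.55 (SE) did not pass (adjusted p = 0.102, exact permutation p = 0.0909), and without that array it was 1.50 and miR-34a was a DEM.

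The other members are the miR-449 miRNAs, which share the seed and are known from ciliated and germ cells. miR-449a (log2 difference 1.61, from 9 of the 10 later arrays) and miR-449c (1.26) were DEMs, and miR-449b was not (0.57 ± 0.32 SE, adjusted p = 0.137). The median of the 6 members was 1.42, beside 0.72 over all miRNAs. The other arm of the miR-34b hairpin, miR-34b-3p, gave 0.19 ± 0.37 (SE, adjusted p = 0.675). With the median Ct of each array 3 of the 6 members were DEMs, and on Ct without normalization 0 were, with miR-449b turning to -0.23.

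**Figure D3:**
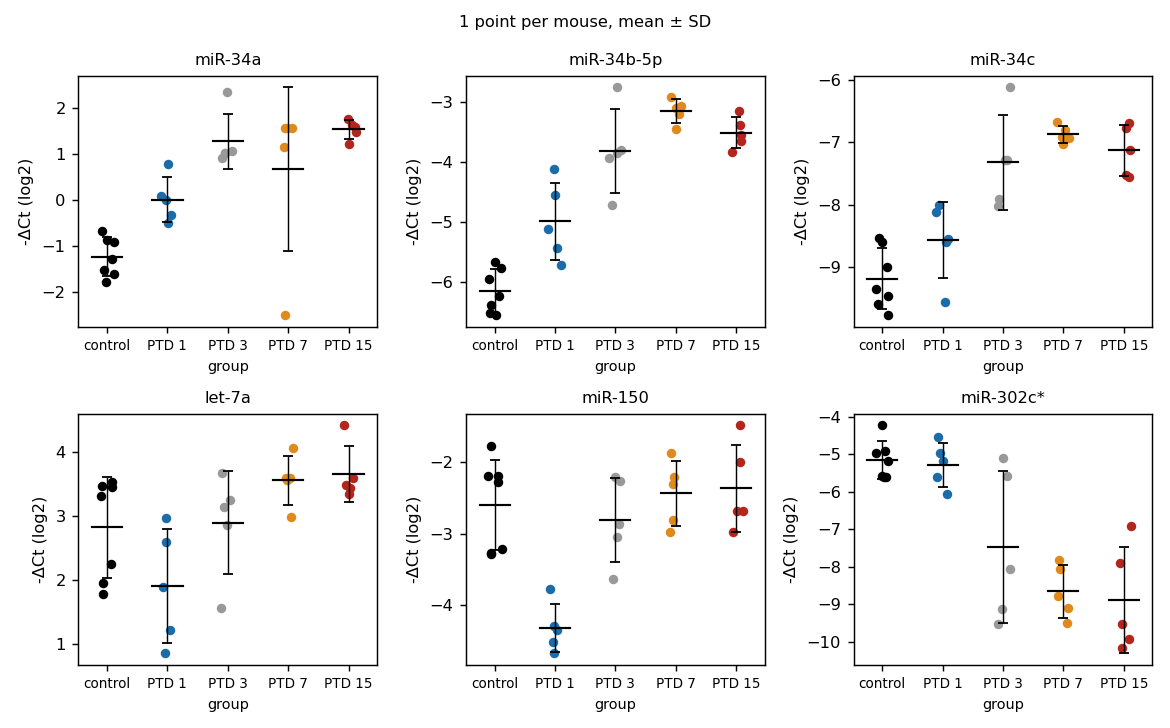
The -ΔCt (log2 scale) of 6 miRNAs in each control mouse and in each mouse of PTDs 1, 3, 7 and 15, with bars at the mean ± SD. For miR-34b-5p and miR-34c the controls lie below all mice of PTDs 7 and 15, miR-150 is lowest on PTD 1, and miR-302c* is split within PTD 3 between -5.1 and -9.5.

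Of the other p53-responsive miRNAs, miR-192, miR-194 and miR-215, which are also markers of liver and gut epithelium, were all higher DEMs, beside 26.9% of all miRNAs and 27 of the 51 up to a control Ct of 22. Their log2 differences were 1.17, 1.07 and 1.74, of which only that of miR-215 was also a DEM with the median Ct of each array. The levels of miR-215 were -4.96, -7.62, -6.65, -4.60 and -5.01 on PTD 1 and -4.82 to -3.25 (median -4.00) on the later days. The mice of PTD 1 were spread over 3 cycles, and 9 of the 10 later mice were above them all. The fold change was 3.33 (adjusted p = 0.00631, exact permutation p = 0.000666).

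In the let-7 family 5 of 9 members were DEMs, all higher, and the median difference was 1.33. Over all miRNAs 26.9% were higher DEMs, and of the 51 up to a control Ct of 22, 27 were, so that the counts of this and the following abundant families are not read as particular to them. let-7a stood at 2.58, 0.85, 1.21, 1.88 and 2.97 on PTD 1 and at 2.98 to 4.42 (median 3.57) on PTDs 7 and 15. The groups did not overlap, although the highest mouse of PTD 1 and the lowest later mouse were 0.01 apart, and the increase was 3.26-fold (log2 difference 1.70 ± 0.34 SE, adjusted p = 0.00165, exact permutation p = 0.000333). The controls, at 1.78 to 3.53, overlapped both groups.

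let-7b, let-7c, let-7d and let-7i were the other DEMs. let-7c differed by 1.69, and let-7b by 1.51 in all arrays and 1.14 in those of February to March. let-7f, at 1.10 ± 0.41 (SE, adjusted p = 0.0338), was not a DEM. All 9 members were positive on the reference scale, 5 were DEMs with the median Ct of each array, and the median on Ct without normalization was 0.53, where 0 were DEMs.

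The miRNAs of the proliferation-linked miR-17-92, miR-106a-363 and miR-106b-25 clusters shifted by similar amounts. Of 12 members, 7 were DEMs, beside 26.9% of all miRNAs, and all 12 differences were positive, as were 286 of all 376, from 0.81 to 1.81 with a median of 1.04. miR-20b was -1.97, -2.90, -2.73, -1.59 and -1.69 on PTD 1 and -1.56 to -0.45 (median -0.98) later. The groups were separate by 0.03 and the log2 difference was 1.24 ± 0.28 (SE, adjusted p = 0.0038). miR-25 differed by 1.26 and miR-363, a rare member with a mean Ct of 32.5, by 1.81. Only 3 of the 12 were DEMs with the median Ct of each array.

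In the miR-15 and miR-16 family, whose members repress cyclins and Bcl2, 3 of 6 were DEMs, among them miR-15b (1.43) and miR-16 (1.12), again beside 26.9% higher over all miRNAs. In the clusters of miR-23, miR-27 and miR-24, 4 of 5 were, with differences between 0.97 and 1.13 for all 5 members, the lowest being miR-24, which lacked a value in replicate 5 of PTD 1. miR-23a and miR-27a, from 1 transcript, differed by 1.08 and 1.13. miR-26b, a repressor of Ezh2, was higher by 1.52 and miR-183 by 1.49. Each was the highest of its list, of which the lowest members were at 0.72 and 0.83. The 6 of the miR-15 and miR-16 family lay between 0.94 and 1.43. With the median Ct of each array 1 of these 6 and 0 of the 5 of the miR-23, miR-27 and miR-24 clusters were DEMs.

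Other families had counts near the share of all miRNAs. In the miR-30 family 1 of 5 was a DEM (miR-30e, 1.07) and the median was 0.76, near that of all miRNAs. In the miR-130 and miR-301 family 1 of 4 was, miR-301a (1.26), and of miR-221 and miR-222, which are often raised in liver tumours, 0 of 2 were, with a median of 0.69. For miR-103 and miR-107 the count was 0 of 2. With 26.9% of all miRNAs higher DEMs, nothing about these small families is read from their counts.

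**Figure D4:**
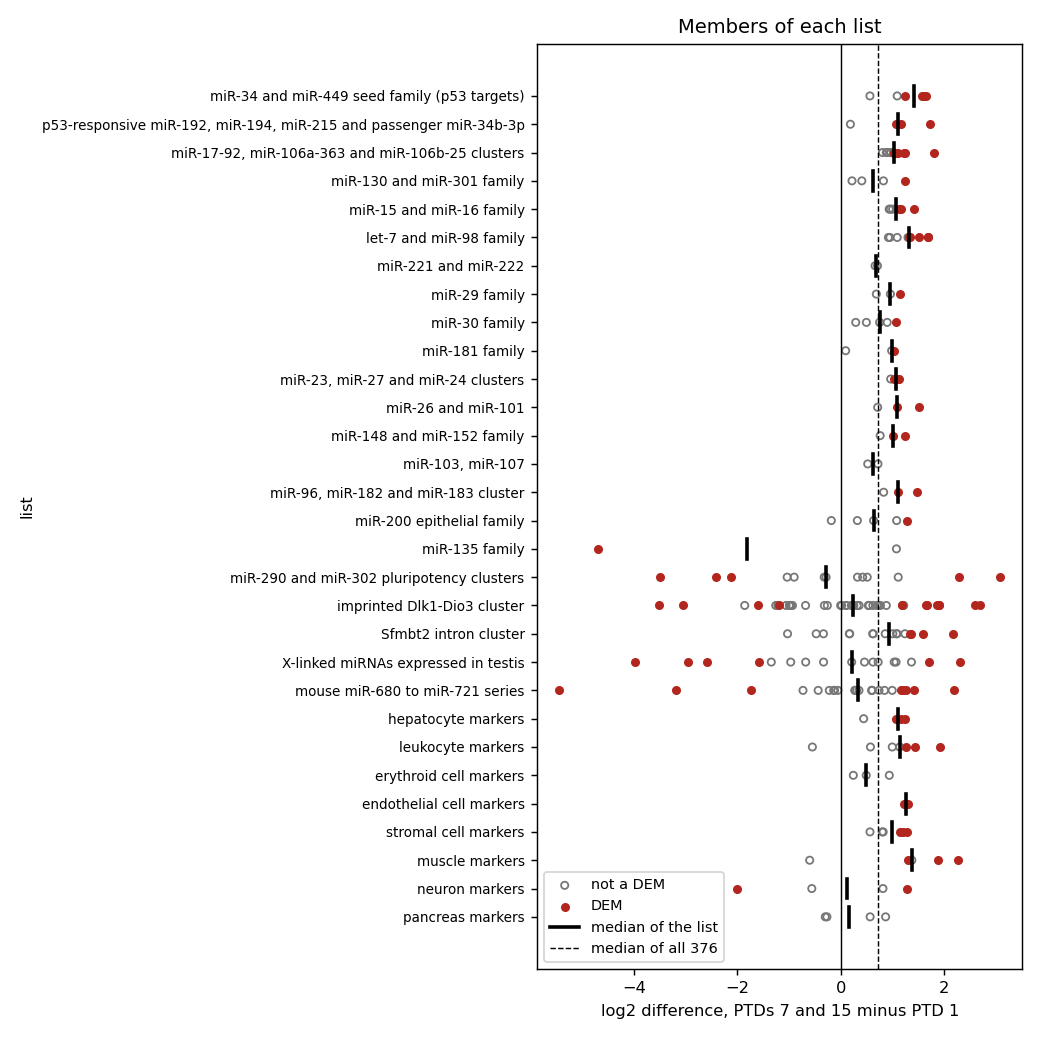
Log2 difference (PTDs 7 and 15 minus PTD 1) of each member of 30 lists of miRNA families and cell type markers, with filled points for DEMs, a bar at the median of the list and a dashed line at the median of all 376 miRNAs, 0.72. Most members of the families of abundant liver miRNAs lie between 0 and 2, whereas the imprinted, X-linked, pluripotency and miR-680 to miR-721 lists spread from below -3 to above 2.

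Among miRNAs that mark blood cells, miR-150 separated the groups clearly. It is a miRNA of mature B and T lymphocytes that represses Myb. Its levels were -3.78, -4.51, -4.67, -4.34 and -4.29 on PTD 1 and -2.98 to -1.48 (median -2.49) on PTDs 7 and 15. All 10 later mice were above every mouse of PTD 1, with a gap of 0.80 between the groups (log2 difference 1.92 ± 0.29 SE, 3.79-fold, adjusted p = 0.000169, exact permutation p = 0.000333). The 7 controls, at -3.28 to -1.77, lay above the 5 mice of PTD 1, and their range overlapped that of the later mice. The difference was 1.72 with the median Ct of each array and 1.12 on Ct without normalization, where miR-150 was still a DEM.

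The counts of marker lists stand beside the 26.9% of all miRNAs that were higher DEMs, and those of leukocytes, stromal cells and muscle rest on few miRNAs. Of the 7 leukocyte markers 3 were DEMs, all higher, which besides miR-150 were the NF-kB-induced miR-146a (1.28) and miR-155 (1.43). miR-223 of granulocytes was at 1.15 ± 0.47 (SE, adjusted p = 0.0474) and miR-142-5p at -0.55 ± 0.35 (SE, adjusted p = 0.201). The summed level of the list ran from -0.54 to 1.18 on PTD 1 and from 1.00 to 2.31 on the later days, so that the ranges overlapped. Of the 3 erythroid markers 0 were DEMs, with miR-451, which red cells hold in large amounts, at 0.94 ± 0.39 (SE, adjusted p = 0.0539).

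The liver markers were present at high levels throughout. miR-122 had a mean Ct of 14.9 and did not pass, with levels of 7.58, 6.13, 6.60, 6.95 and 7.46 on PTD 1 and 3.29 to 8.66 (median 7.77) later. Of the later mice 8 were above all of PTD 1 and 1, replicate 1 of PTD 15, was below them all. The difference was 0.45 ± 0.64 (SE, adjusted p = 0.576, exact permutation p = 0.613), and without that array 0.90. The other 3 hepatocyte markers, miR-192, miR-194 and miR-148a (1.26), were DEMs.

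Both endothelial markers, the arms of miR-126 from the gene Egfl7, were DEMs (1.31 for miR-126-3p), as were 3 of 6 stromal markers, with list medians of 1.27 and 0.99. Of 5 muscle markers 3 were DEMs, with a summed level of -9.08 to -6.38 on PTD 1 and -7.71 to -5.31 later. Of 4 pancreas markers 0 were DEMs. Of 4 neuron markers, miR-137 was higher (1.28) and miR-9* lower (-2.01). The part of these cell types in the differences was not tested.

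The remaining higher miRNAs without overlap were mostly rare in liver. miR-294*, an arm of the miR-290 cluster of embryonic stem cells, was -11.59, -12.39, -12.36, -13.02 and -14.62 on PTD 1 and -10.98 to -8.95 (median -9.60) on PTDs 7 and 15. The later mice were all above PTD 1 (log2 difference 3.10 ± 0.43 SE, 8.55-fold, adjusted p = 9.56e-05, exact permutation p = 0.000333), at a mean Ct of 32.9.

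miR-590-3p, from an intron of Eif4h, was -12.45, -13.92, -14.42, -12.12 and -13.70 on PTD 1 and -11.65 to -10.11 (median -10.62) later, a difference of 2.66 ± 0.36 (SE, adjusted p = 9.56e-05). The later mice again lay above every mouse of PTD 1. The other arm of this hairpin, miR-590-5p, was at -0.33 and was not a DEM, at a mean Ct of 33.9. miR-133b, a miRNA of muscle, was -13.72, -12.97, -14.34, -13.34 and -13.62 on PTD 1 and -12.69 to -10.00 (median -11.23) later, with a difference of 2.27 ± 0.39 (SE, adjusted p = 0.000485). Like miR-294*, miR-590-3p and miR-133b have a mean Ct above 32.

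Both arms of miR-770, whose hairpin sits in the imprinted gene Meg3, were higher. miR-770-3p was -8.60, -9.44, -9.39, -8.50 and -8.88 on PTD 1 and -7.54 to -6.16 (median -7.27) later. miR-770-5p was -8.51, -8.96, -9.03, -8.07 and -7.94 on PTD 1 and -7.62 to -5.76 (median -6.80) later. The 2 arms thus gave like differences, 1.91 ± 0.29 and 1.65 ± 0.31 (SE; adjusted p = 0.000176 and 0.000983).

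miR-298, from the imprinted Gnas locus, was higher by 1.87 ± 0.42 (SE, adjusted p = 0.00412), with -8.61, -9.76, -8.98, -8.09 and -8.27 on PTD 1 and -7.92 to -5.17 (median -6.96) later. miR-762 was higher by 1.66 ± 0.31 (SE, adjusted p = 0.00103), with -6.38, -7.02, -7.12, -7.06 and -6.93 on PTD 1 and -6.21 to -4.29 (median -5.39) later. The gap between the groups was 0.17 for both.

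The lower DEMs were fewer but their differences were larger. miR-684 was -5.47, -8.10, -7.35, -9.61 and -7.56 on PTD 1 and -15.01 to -10.78 (median -13.46) in the 9 later arrays that gave a Ct. All 9 lay below every mouse of PTD 1, the well of replicate 3 of PTD 15 being Undetermined and left out, and the difference was -5.45 ± 0.69 (SE), 43.7-fold (adjusted p = 9.56e-05, exact permutation p = 0.0005). Its mean Ct was 29.2 on PTD 1 and 35.5 later.

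miR-135b, which represses Apc and so acts on Wnt signalling, was -6.65, -7.75, -7.64, -9.79 and -7.07 on PTD 1 and -16.13 to -10.71 (median -12.38) on PTDs 7 and 15. The groups did not overlap and the difference was -4.70 ± 0.70 (SE, adjusted p = 0.000169, exact permutation p = 0.000333). Its relative miR-135a, with the same seed, was at 1.08 ± 0.98 (SE, adjusted p = 0.365), a value that replicate 2 of PTD 15 decides: its level of -16.5 lay far below the -9.99 to -8.38 of the other 4, and without it the difference was 1.78 and miR-135a was a DEM.

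miR-302c*, an arm of the miR-302 cluster of pluripotent cells, was -4.53, -5.61, -5.18, -6.06 and -4.98 on PTD 1 and -10.18 to -6.91 (median -8.95) later. No mouse overlapped (log2 difference -3.50 ± 0.48 SE, 11.3-fold, adjusted p = 9.56e-05). The 7 controls, at -5.60 to -4.22, lay with PTD 1.

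miR-880, of an X-linked cluster expressed in testis, was lower by 2.58 on the log2 scale (-9.85, -10.61, -11.34, -11.57 and -11.01 against -15.64 to -11.58, adjusted p = 0.00221). miR-876-5p was lower by 2.36 on the log2 scale (-8.61, -11.68, -10.99, -10.72 and -9.68 against -13.47 to -12.01, adjusted p = 0.000624). In miR-880 the groups were 0.01 apart, and in miR-876-5p 0.33. The other arm of the latter, miR-876-3p, was at 0.81 and was not a DEM, at a mean Ct of 36.0. In the remaining 17 lower DEMs the groups overlapped.

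These 22 miRNAs also split the mice of PTD 3, which did not enter the comparison, along the reverse transcription control wells. In replicates 1 and 2 of PTD 3 the first of these wells minus the second was -0.29 and -0.19 cycles, and the median level of the 22 stood 0.04 and 0.29 above the PTD 1 means. In replicates 3, 4 and 5 the wells gave 0.17, 0.17 and 0.15 cycles, and the median level of the 22 stood at -3.43, -2.07 and -2.88. Replicates 1 to 4 were run on the same day.

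For 19 of the 22 (86.4%) the latter 3 mice were all below the former 2, against 20.2% of all 376 miRNAs. miR-302c* was at -5.6 and -5.1 in the former and at -9.5, -8.1 and -9.1 in the latter, and miR-684 at -9.3 and -9.2 against -14.9, -13.1 and -13.0. Among the 7 controls, the 2 arrays run in May had wells at 0.28 and 0.30 and medians of -1.11 and -1.54, while the other 5 had wells of -0.26 to -0.15 and medians of -0.66 to 1.24. These are medians over the 22, and members differed: miR-302c* was split within PTD 3 but stood at -5.60 to -4.22 in all 7 controls, those of May included. Replicate 4 of PTD 1, at -0.02 cycles, had the lowest median of PTD 1, -1.71. The part of what these wells measure in the differences between PTDs was not tested, and no run day held both groups.

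Of the 101 higher DEMs, 22 (21.8%) were higher in all of the latter 3 mice of PTD 3 than in the former 2, against 9.31% of all miRNAs. The mean of the latter was above that of the former for 92 of the 101, against 210 of all 376, with a median difference of 0.42 against 0.10. In the 2 controls of May the median level of the 101 stood at 1.50 and 1.40 above the PTD 1 means, and in the other 5 at -0.26 to 1.25. miR-34b-5p was at -3.9 and -3.9 in replicates 1 and 2 and at -3.8, -2.8 and -4.7 in replicates 3 to 5 of PTD 3, with no split, and miR-150 at -3.1 and -2.3 against -2.9, -3.6 and -2.2. miR-590-3p and miR-770-3p, by contrast, were higher in all of the latter mice (-13.0 and -14.3 against -12.9, -9.8 and -10.6 for miR-590-3p). So was miR-449c, which has the miR-34 seed (-8.6 and -8.1 against -7.8, -6.9 and -7.2).

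With the well difference as a covariate in the fit of PTDs 7 and 15 against PTD 1, 23 miRNAs were DEMs, 21 of them among the 123. These included miR-34b-5p (1.48 ± 0.50 SE), miR-34c (1.67 ± 0.50), miR-449c (1.66 ± 0.55), let-7b, let-7c, miR-150 (1.76 ± 0.51), miR-294*, miR-590-3p, miR-133b and miR-770-3p on the higher side, and miR-684, miR-302c*, miR-876-5p, miR-883b-5p and miR-9* on the lower. These 5 were all the lower DEMs with the covariate, so that miR-135b and miR-880 were no longer DEMs. As the covariate nearly separates the groups, its standard errors are wide.

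**Figure D5:**
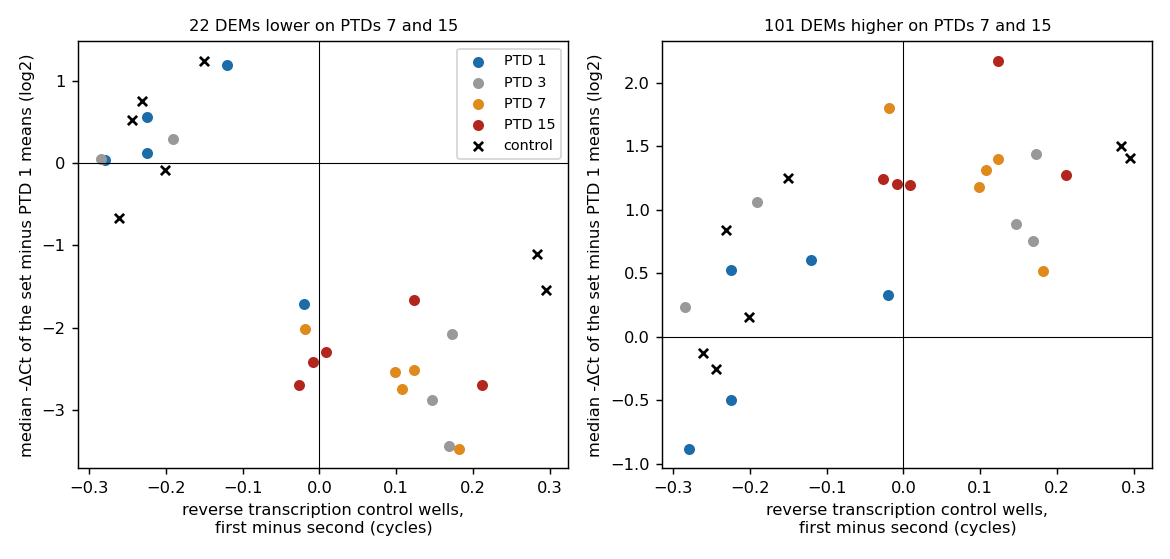
For each array of the control group and of PTDs 1, 3, 7 and 15, the median -ΔCt of the 22 lower DEMs (left) and the 101 higher DEMs (right), each miRNA relative to its PTD 1 mean (log2), against the first minus the second reverse transcription control well in cycles. The lower DEMs lie near 0 or above in all arrays with wells under -0.1 except 1 control at -0.66, and between -3.47 and -1.11 in all others.

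The mean of all 7 controls placed the 2 directions differently, whereas that of the 3 run from February to March lay nearer to PTD 1 for nearly all DEMs of both. The mean of the 7 controls was nearer to PTD 1 than to PTDs 7 and 15 for all 22 lower DEMs, and lay 0.02 from the PTD 1 mean in the median. That of the 3 controls run from February to March was nearer to PTD 1 in 21 of the 22. For the 101 higher DEMs the mean of the 7 controls was nearer to the later days in 54 and nearer to PTD 1 in 47, whereas the mean of the 3 controls run from February to March was nearer to PTD 1 in 100. The 3 controls of February to March were all of PTD 1 and the other 4, run in April and May, all of PTD 30, so that run period and day after the vehicle cannot be told apart. These days are those of the sample titles, and the study's methods give other numbers of control animals for the days.

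The rare clusters, except that of the Sfmbt2 intron, held DEMs in both directions. Their counts stand beside 26.9% higher and 5.85% lower over all miRNAs. In the miR-290 and miR-302 clusters 2 of 13 were higher (miR-294* and miR-290-5p, 2.30) and 3 lower (miR-302c*, miR-291a-3p at -2.41 and miR-292-5p at -2.13). Of 44 miRNAs of the imprinted Dlk1-Dio3 cluster 8 were higher and 4 lower, among the latter miR-369-5p (-3.51) and miR-758 (-3.05, from 9 of the 10 later arrays), with a median of 0.24. Of 17 X-linked miRNAs expressed in testis 2 were higher and 4 lower, among them miR-883b-5p (-3.98) and miR-742 (-2.95). In the Sfmbt2 intron cluster 4 of 16 were higher, with miR-466d-5p at 2.17 and miR-467c at 1.37, and 0 lower. Of 24 miRNAs numbered from miR-680 to miR-721, 5 were higher and 3 lower. These splits depended on the scale. The Dlk1-Dio3 cluster gave 5 higher and 7 lower with the median Ct of each array and 2 and 13 on Ct without normalization. Without normalization the splits were 1 and 5 for the miR-290 and miR-302 clusters, 0 and 6 for the X-linked miRNAs, 0 and 2 for the Sfmbt2 cluster and 0 and 4 for miR-680 to miR-721.

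Arms of 1 hairpin come from the same precursor, and both were measured for 47 hairpins. The counts that follow stand beside 26.9% higher and 5.85% lower DEMs over all miRNAs. In 5 of these both arms were higher DEMs, as for miR-126 and miR-770, in 0 both were lower, and in 18 a single arm was a DEM, 13 higher and 5 lower. Only miR-883b had arms that were DEMs in opposite directions. miR-883b-5p fell from -6.95, -9.27, -8.23, -9.88 and -8.68 on PTD 1 to a median of -13.10, and miR-883b-3p rose from -11.50, -15.72, -13.11, -14.79 and -13.01 to a median of -11.36. Both have mean Cts above 33, and in PTD 3 the 5p arm was split by the control wells (-8.6 and -8.4 against -13.0, -13.7 and -13.5) and the 3p arm was not.

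Few miRNAs were called between the pooled later days. Both later days were set against the same 5 mice of PTD 1. There were 77 DEMs on PTD 7 (20.5%), 53 higher (14.1%) and 24 lower (6.38%), and 118 on PTD 15 (31.4%), 101 higher (26.9%) and 17 lower (4.52%). With run day as a random block these were 18 (8 higher, 10 lower) and 35 (27 and 8), while the median log2 difference of all miRNAs was 0.59 with the block and 0.66 without it for PTD 7, and 0.85 and 0.81 for PTD 15. On Ct without normalization the counts were 56 (10 and 46) and 60 (8 and 52), and the balance turned. PTD 15 against PTD 7 gave 5 DEMs (1.33%), all higher on PTD 15. The direction turned with the median Ct of each array (2 higher, 5 lower) and without normalization (1 and 3). By limma 0 had an adjusted p under 0.05, while 17 had an unadjusted p under 0.05 (4.52%). The smallest adjusted p was 0.637. Of the 376 differences 270 were positive, with a median of 0.18, or -0.09 with the median Ct of each array. miR-880 was among the 5 (-14.2 on PTD 7 and -12.7 on PTD 15), together with miR-541, miR-329, miR-154* and miR-687, which were named after their values were seen.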

How the data were processed

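For each of the 35 arrays the authors deposited the Ct of every well as SDS 2.3 calculated it with a fixed threshold, not normalized. Per the labels, each array is the liver RNA of 1 mouse. Wells were named from the array layout given with the paper. The PCR ran for 40 cycles, and the 11 Undetermined wells of the 15 arrays, some in assays of abundant miRNAs, were treated as missing. Precision is set by how many arrays each group has, as arrays have no read depth.

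Groups came from the sample titles. -ΔCt was computed against the mean Ct of the 4 reference RNAs of the same array. The 15 arrays were fitted in limma 3.58.1 under R 4.3.3, with moderated two-sided tests and Benjamini-Hochberg adjustment over all 376 miRNAs, once with PTDs 7 and 15 pooled and once with 3 groups. DEMs follow the thresholds of the study's methods, p under 0.01 and a fold change above 2. Single miRNAs were also tested by exact permutation over all splits of the arrays, two-sided. Python 3.11.15, numpy 2.4.6, scipy 1.17.1, pandas 2.3.3 and matplotlib 3.10.9 were used. The fit and the permutation test were tested on simulated data.

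The members and lists were chosen with earlier results of these data known. The miRNAs named are the 10 higher and 10 lower DEMs with the largest differences among those that were also DEMs in the arrays of February to March and did not overlap between groups (only 5 were lower), the members of the lists, and the reference RNAs. Alternatives were the median Ct of each array, each set of 3 reference RNAs, a Ct ceiling of 35, a mean Ct of at most 30, Undetermined wells at 40, the methods' t-test, adjusted p, permutation p, a fit of all groups, the control wells as a covariate, run day as a random block, a replicate block and each array left out. Ct without normalization, the single PTDs against the arrays of February to March (the fit without replicate 4 of PTD 1), the values of PTD 3 by control well, the controls, abundance by control Ct and the arms of hairpins were added after the data were examined.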

Additional observations from a re-analysis of the deposited data

Results flagged for a closer look

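In 19 of 192 groups of 5 arrays 1 array stood apart from the other 4 by Dixon's criterion, which chance alone meets in about 1 in 20 groups. Replicate 5 of PTD 15 accounted for 9 of them. Its snoRNA251 and U6 had Ct values of 24.8 and 24.4, later than in the other 4 arrays. Its levels were the highest of PTD 15 for let-7a (4.42), let-7c (4.53), miR-16 (6.14), miR-26b (3.24), miR-183 (-3.70) and miR-9* (-8.71), and the lowest for let-7f (3.16).

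Elsewhere on PTD 15, replicate 1 was low for miR-122 (3.29), replicate 2 low for miR-135a (-16.5) and replicate 4 early for snoRNA202 (Ct 23.4). On PTD 7, replicate 5 was low for miR-34a (-2.51), replicate 3 high for miR-34b-3p (-8.21) and low for miR-883b-5p (-13.3), and replicate 2 low for miR-137 (-4.56) and early for snoRNA142 (Ct 19.6). On PTD 1, replicate 1 was high for miR-762 (-6.38) and replicate 4 early for snoRNA202 (Ct 21.2).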

How the results depend on the processing

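The 123 DEMs of PTDs 7 and 15 against PTD 1 became 77 (54 higher, 23 lower) without snoRNA202, 76 (74 and 2) with a mean Ct of at most 30, 23 (18 and 5) with the reverse transcription control wells as a covariate and 64 (9 and 55) on Ct without normalization. With the median Ct of each array they were 99 (66 and 33). The 144 of the February to March arrays became 84 (81 and 3) with a mean Ct of at most 30, 22 (11 and 11) with the covariate and 84 (7 and 77) without normalization. The 77 DEMs of PTD 7 became 46 without snoRNA202, 19 with the covariate, 18 with run day as a random block, 43 by the methods' t-test and 37 by exact permutation. The 118 of PTD 15 became 60, 22, 35, 72 and 73 in the same order, and 60 without normalization. The 5 of PTD 15 against PTD 7 became 10 without snoRNA251, 1 with a mean Ct of at most 30, 3 in a fit of all groups, 0 with run day as a block, by the methods' t-test or by adjusted p, and 1 by exact permutation. The causes were not tested, except that a mean Ct of at most 30 leaves fewer miRNAs to test. Higher against lower also turned on Ct without normalization for PTD 7 (10 and 46) and PTD 15 (8 and 52), and PTD 15 against PTD 7 gave 2 and 5 with the median Ct and 1 and 3 without normalization.

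With 1 array left out the counts ran from 73 to 147 (pooled), 79 to 162 (February to March), 49 to 111 (PTD 7), 62 to 138 (PTD 15) and 2 to 11 (PTD 15 against PTD 7). Of the PTD 1 arrays, leaving out replicate 2 or 3 gave 73 and 80 DEMs pooled, 79 and 83 in the February to March arrays, 49 and 51 for PTD 7 and 62 and 69 for PTD 15. Leaving out replicate 1 or 3 of PTD 7 gave 51 and 51 for PTD 7. For PTD 15 against PTD 7 the count was 8 without replicate 4 of PTD 1, 3 and 2 without replicates 1 and 3 of PTD 7, and 2, 11 and 2 without replicates 1, 3 and 5 of PTD 15.

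The replicate numbers did not pair the arrays, since 5 of 30 correlated best with their own number. With a replicate block there were 128 DEMs pooled, 148 in the February to March arrays, 97 for PTD 7, 135 for PTD 15 and 8 for PTD 15 against PTD 7.

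Of 3614 values for 60 named miRNAs, 3321 kept direction and call, 243 lost the call, 27 gained it and 23 changed direction. None of the 23 was a DEM. With the covariate miR-122 was at -0.52 and, in February to March, -1.08, miR-135a at -0.64 and -1.37, and miR-34a at -0.30 in February to March. Without normalization miR-122 was at -0.35 and -0.48 and miR-449b at -0.23 and -0.19. miR-34b-3p, at 0.19 and -0.03, was -0.014 with the median Ct and -0.61 without normalization, and in February to March 0.074 without snoRNA202, 0.039 without snoRNA142, 0.014 with run day and 0.12 with the replicate block. With 1 array left out it ran from -0.033 to 0.41 pooled and from -0.29 to 0.19 in February to March.

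The 5 arrays of PTD 1 limit the precision, and rare miRNAs with a Ct above 33 rest on few molecules.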
